A study of Mus musculus with 29 samples.

Results

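The comparison described here sets mouse hearts in established heart failure (HF), taken at week 5 of an induction protocol, against hearts of control mice taken at week 19. It held 8 RNA-seq libraries, 3 of HF week 5 and 5 of control week 19, out of 24 libraries of the deposited expression table that were used and 29 samples that were labelled. Genes were chosen by a rule on the values. A gene was called changed in all 3 HF libraries when its limma adjusted p was under 0.05 with every library, stayed under 0.05 in the same direction after HF library 1 was left out, and no HF library overlapped any control library. Of 29955 genes in the table, 12759 passed a minimum mean of 0.5 FPKM (fragments scaled to transcript length and to the size of the library) and were tested, and 1169 of them met the rule, with 442 higher and 727 lower in HF. These are 3.46% and 5.70% of the genes tested. Since the rule requires HF and control libraries not to overlap, the lack of overlap of a changed gene adds no support. Of the 442 higher, 51 averaged under 0.5 FPKM in the controls and passed that minimum through other libraries, so that those named below are described by their FPKM with no test. The shares with an adjusted p under 0.05 in all libraries alone were 11.6% higher and 12.4% lower.

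All mice were male C57BL/6J, 3 months old when the protocol began. The HF mice drank water with 0.3 mg/mL L-NAME, an inhibitor of nitric oxide synthases, and 1% NaCl for 5 weeks. After the first 1 week an osmotic pump also delivered angiotensin II at 0.7 mg/kg per day for 28 days. The controls were named as age matched to each phase of the study, and those used here were collected 14 weeks later in the protocol than the HF mice, so that age and treatment cannot be told apart. The sources used here do not say whether control mice carried pumps. The labels give both the whole heart and the whole ventricle as the tissue, whereas the methods describe apical portions. The study used 4 cohorts of animals, and the cohort of each library is not given. Nothing links a column of the table to one labelled animal, so that p-values measure the spread between libraries only. That spread was estimated from all 24 libraries in 8 groups, not from the 8 libraries compared here alone.

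Pressure overload and angiotensin II make cardiac muscle cells grow, and growing muscle cells return to a set of genes used by the fetal heart, among them natriuretic peptides, the slow myosin heavy chain and skeletal actin. Fibroblasts in the same hearts lay down collagen and matricellular proteins, which sit in the matrix and bind growth factors. The healthy adult heart gets most of its ATP from fatty acids oxidised in mitochondria, through the beta-oxidation spiral, the tricarboxylic acid (TCA) cycle and the respiratory chain, and these pathways are known to lose expression in the failing heart. Each muscle contraction is started by calcium that enters at junctions between the surface membrane and the sarcoplasmic reticulum.

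The libraries were of similar depth, with relative depths of 0.94 to 1.2 taking control library 1 as 1, and the absolute depth is unknown. Total FPKM ran from 690899 to 900360. HF library 1 stood apart through genes of the atrium. Myl7, the atrial myosin light chain, had 18388, 152 and 6.16 FPKM in HF libraries 1 to 3 and 0.166 to 1.12 FPKM in the controls. Sln, sarcolipin of the atrium, had 9904, 147 and 1.28 FPKM, against 0 to 0.988 FPKM in controls. A club cell gene of the airway, Scgb1a1, was at 48.1, 0 and 0 FPKM in the HF libraries, and at no more than 0.261 FPKM in a control. Among the controls, library 5 stood apart, being the lowest control for 75.7% of the genes that fell, against 33.5% of all genes tested, and the highest for 55.0% of those that rose, against 36.4%. Without control library 5, 1152 of the 1169 genes still met the rule. Leaving out a control cannot make the groups overlap, and this one lay towards HF for many of these genes. The number is therefore no test of their stability. Cuffdiff listed 8 genes at 0 throughout a group although other groups held high values, and these were left out of every count. They include the ventricular light chain Myl2 and myoglobin Mb, listed at 0 in the controls, and Myh6, listed at 0 in all 8 libraries. Levels in this bulk RNA cannot tell fewer cells of a type from less RNA per cell.

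Genes were also grouped into 55 lists by process or cell type. A list's level in a library is the mean over its members of log2(FPKM + 0.5) minus the control mean, and differences are on the same log2 scale throughout. The median difference over all genes tested was 0.043, and 0.030 without HF library 1. Differences of genes at low FPKM are understated by the added 0.5. Counts of members depend on which libraries enter. Without HF library 3 the rule was met by 81 genes higher and 121 lower, and without HF library 2 by 93 and 267, where 1 HF library is left beside HF library 1. Leaving out 1 of control libraries 1 to 4 gave 262 to 288 higher and 499 to 534 lower, and leaving out control library 5 gave 823 and 1125.

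**Figure D1:**
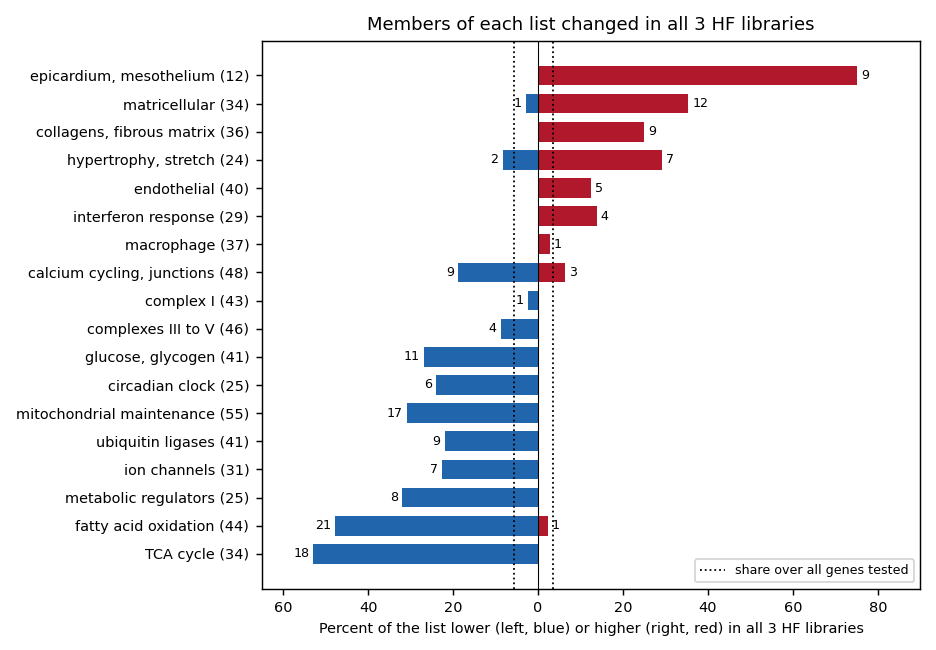
Percent of the members of each list that changed in all 3 HF libraries, with lower members to the left in blue and higher members to the right in red; numbers at the bars count the members and numbers in brackets give the list's size. Dotted lines mark the shares over all genes tested, 5.70% lower and 3.46% higher, and the TCA cycle, with 18 of 34 members lower, lies farthest to the left; the epicardial and mesothelial bar, 9 of 12, counts genes that averaged under 0.5 FPKM in controls and is a description only.

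Of the hypertrophy and stretch genes, 7 of 24 rose, 2 fell and 15 did not pass, with a median difference of 0.30, or 0.51 without HF library 3. Nppb, which encodes B-type natriuretic peptide, had 1155, 1664 and 1610 FPKM in HF and 232, 358, 271, 337 and 619 FPKM in control libraries 1 to 5. The difference was 2.09 ± 0.42 (SE; limma adjusted p = 0.00165). Nppa, the atrial natriuretic peptide, had 42004, 2100 and 2214 FPKM in the HF libraries against 202, 345, 250, 269 and 81.1 FPKM in controls. It is given without a test because it was listed at 0 in another group of the table. Myh7, the slow beta-myosin heavy chain, had 237, 229 and 141 FPKM against 21.2, 27.0, 43.4, 48.1 and 16.3 FPKM, a difference of 2.76 ± 0.51 (adjusted p = 0.000994; 2.62 ± 0.60 without HF library 1). Acta1, the skeletal alpha-actin of the fetal heart, had 578, 1317 and 1236 FPKM in HF against 227, 436, 153, 237 and 129 FPKM. HF library 1 was its lowest HF library, close to the highest control, and the difference was 2.18 ± 0.43 (adjusted p = 0.00145). Actc1, the cardiac alpha-actin, cannot be set beside it, since it was listed at 0 in all controls and at 2788, 5762 and 5251 FPKM in HF.

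Of the list's other members, Ankrd1 and Xirp2 rose. Ankrd1, a titin-binding ankyrin protein of stretched muscle, had 708, 954 and 643 FPKM against 273, 388, 292, 383 and 322 FPKM (1.20 ± 0.25, adjusted p = 0.00233). Xirp2, an actin-binding protein of the intercalated disc, had 129, 175 and 145 FPKM against 57.7 to 86.4 FPKM. The other members that rose were Tpm2, the beta-tropomyosin, by 1.22, and Rcan1, a calcineurin inhibitor that calcineurin itself induces, by 0.73. Fhl2, a LIM-domain protein of the sarcomere, fell by 1.07 and Pkm2, a pyruvate kinase record, fell by 0.64. 4 members passed with all libraries but not the full rule, namely Fhl1 at 0.42, Uchl1 at 0.57, Hspb7 at -0.62 and Vcl at -0.47. With no call, the differences of Csrp3, Des, Flnc and Nrap were 0.06, -0.01, 0.00 and 0.16, and those of Ankrd2, Xirp1, Myh7b and Synpo2l were 0.27, 0.27, -0.41 and -0.21. The metallothioneins Mt1 and Mt2 differed by 0.34 and 0.80, and Eno2 by 0.61, again with no call.

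TEAD transcription factors bind the letters GGAATG, known as an MCAT element on muscle promoters, and promoters of 4 of the members that rose are shown because each holds that motif. The motif was searched on both strands, as GGAATG or CATTCC, in the 300 bases from 250 before to 50 after the RefSeq gene start (GRCm38.p6). It was found in 14.7% of all 32851 promoters, in 12.4% of those of the genes tested and in 16.8% of those of the genes that rose. It was in 13.1% of those of the genes that fell and in 9 of 33 promoters of the 25 hypertrophy genes matched, a description with no test. Capitals mark the motif, each sequence reads 5′ to 3′ along the gene's strand, and positions count bases before the gene start. Nppb (chr4:147985650-147985949, + strand) has 1 match starting at 105, Acta1 (chr8:123894726-123895025, - strand) 1 match starting at 46, Myh7 (chr14:54994577-54994876, - strand) 1 match starting at 201, and Ankrd1 (chr19:36119795-36120094, - strand) 2 matches starting at 210 and 123.
Nppb: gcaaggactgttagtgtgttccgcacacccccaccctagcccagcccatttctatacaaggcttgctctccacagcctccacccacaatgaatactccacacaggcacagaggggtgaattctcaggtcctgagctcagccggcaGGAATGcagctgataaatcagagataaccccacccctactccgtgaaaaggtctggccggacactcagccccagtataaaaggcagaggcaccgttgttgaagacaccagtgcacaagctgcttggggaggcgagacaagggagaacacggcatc
Acta1: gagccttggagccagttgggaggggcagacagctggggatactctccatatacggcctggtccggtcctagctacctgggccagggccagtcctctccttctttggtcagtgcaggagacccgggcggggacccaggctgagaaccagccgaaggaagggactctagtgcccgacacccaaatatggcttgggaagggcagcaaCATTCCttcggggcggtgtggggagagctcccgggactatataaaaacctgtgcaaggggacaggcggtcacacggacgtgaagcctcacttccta
Myh7: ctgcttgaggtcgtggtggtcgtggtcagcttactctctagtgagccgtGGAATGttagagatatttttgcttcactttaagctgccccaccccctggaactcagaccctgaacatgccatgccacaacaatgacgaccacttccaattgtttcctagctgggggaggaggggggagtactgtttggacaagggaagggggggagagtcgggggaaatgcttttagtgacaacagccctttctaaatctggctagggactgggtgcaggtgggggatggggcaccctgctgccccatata
Ankrd1: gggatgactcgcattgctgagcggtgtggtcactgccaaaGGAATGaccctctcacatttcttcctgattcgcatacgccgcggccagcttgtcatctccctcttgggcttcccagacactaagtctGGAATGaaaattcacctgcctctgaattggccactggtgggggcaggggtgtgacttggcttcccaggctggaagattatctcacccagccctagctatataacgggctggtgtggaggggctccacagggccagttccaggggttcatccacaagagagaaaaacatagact

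**Figure D2:**
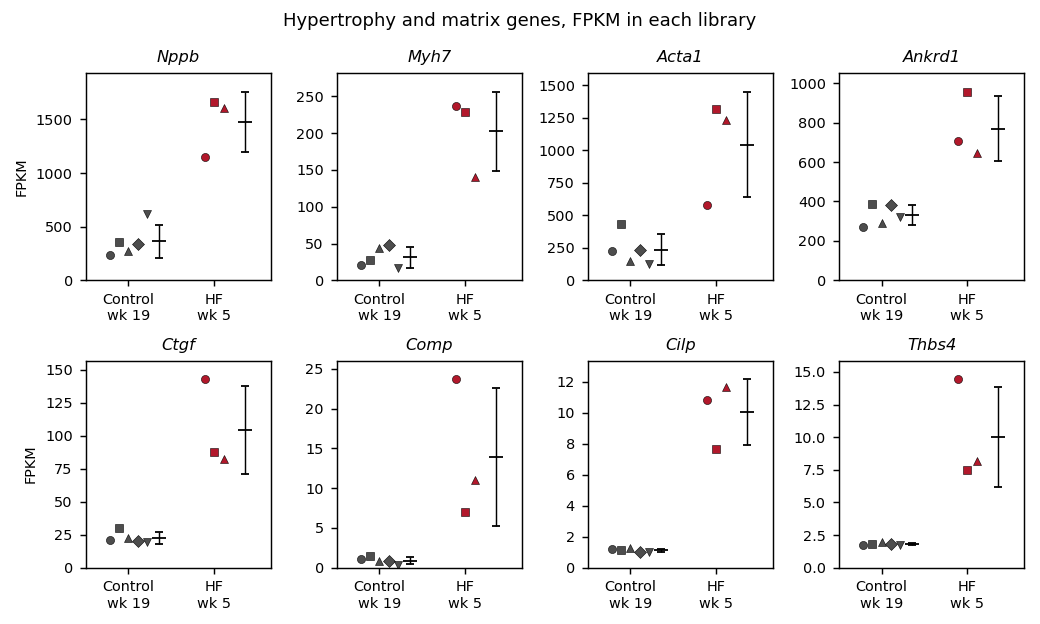
FPKM in each library for 4 hypertrophy genes (top row) and 4 matrix genes (bottom row); red symbols are HF libraries 1 to 3, grey symbols control libraries 1 to 5, marked by shape in that order, and the bar gives the mean ± SD of each group. In all 8 panels every HF library lies above every control, as the rule that chose the genes requires. The closest pair by ratio is Acta1 in HF library 1, at 578 FPKM, and in control library 2, at 436 FPKM.

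9 of 36 collagens and fibrous matrix genes rose and none fell, with a median difference of 0.74 (0.55 without HF library 1). With all libraries alone, 23 members had an adjusted p under 0.05, all higher. 1 of the 9, Fmod, fibromodulin, which binds collagen fibrils, averaged under 0.5 FPKM in controls, with 12.9, 4.16 and 3.75 FPKM in HF against 0.0876 to 0.185 FPKM. Mfap4, a protein of elastic microfibrils, rose by 1.97, Col14a1 by 1.33 and Col8a1 by 0.93. Fn1, fibronectin, rose by 1.17. The fibrillar collagens Col1a1 and Col3a1 differed by 0.38 (adjusted p = 0.166) and 0.65 (0.0152, and 0.124 without HF library 1). Neither met the rule. The level of the collagen and fibrous matrix list was 1.12, 0.45 and 0.71 in HF libraries 1 to 3 and -0.05 to 0.03 in controls.

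12 of 34 matricellular and TGF-beta genes rose and 1 fell, with a median of 0.62. Comp, a pentameric thrombospondin of tendon and cartilage, had 23.7, 7.05 and 11.1 FPKM in HF and 1.04, 1.49, 0.865, 0.821 and 0.295 FPKM in controls. The difference was 3.25 ± 0.49 (adjusted p = 0.000187). Cilp, a secreted protein of cardiac fibroblasts and cartilage, had 10.8, 7.66 and 11.7 FPKM against 1.21, 1.11, 1.25, 1.01 and 1.03 FPKM (2.68 ± 0.51, adjusted p = 0.00124). Thbs4, another thrombospondin, had 14.4, 7.50 and 8.16 FPKM against 1.71 to 1.94 FPKM. Ctgf, a matricellular growth factor induced by TGF-beta and by stretch, had 143, 87.4 and 82.7 FPKM against 19.2 to 29.8 FPKM, and Ltbp2, which binds fibrillin, rose by 2.13. Postn, periostin of activated fibroblasts, had 34.4, 11.5 and 18.1 FPKM against 3.92 to 8.41 FPKM. Smoc2, a calcium-binding matricellular protein, was the member that fell, with 0.883, 2.63 and 5.98 FPKM in HF against 7.71 to 15.7 FPKM in controls. The list's level was 1.22, 0.54 and 0.73 in HF libraries 1 to 3 and -0.11 to 0.18 in controls.

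Of 34 enzymes that cut or protect the matrix, and their inhibitors, 9 were higher and 4 lower with an adjusted p under 0.05 in all libraries alone. Over all genes tested these shares were 11.6% and 12.4%. By the full rule none rose and 1 fell, Timp3, an inhibitor of metalloproteinases, which had 8.36, 5.83 and 8.40 FPKM against 9.11 to 19.7 FPKM. The fall of Timp3 lost its call when HF library 2 was left out (-0.82). In the basement membrane list 1 of 17 rose, the laminin chain Lama4 (0.55 ± 0.12). Fibroblast markers showed 4 of 27 higher, among them Wif1, a secreted Wnt inhibitor, by 1.43 and Pi16 by 1.17, and none lower. The smooth muscle and pericyte list had 3 of 22 higher, namely Acta2, the smooth muscle actin, by 0.96, Synm by 0.91 and the PDGF receptor Pdgfrb by 0.59.

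Of the insulin-like and fibroblast growth factor list 4 of 31 members rose, all from the insulin-like family, and 1 fell. Igf2 had 146, 24.5 and 26.2 FPKM against 6.05 to 7.68 FPKM (2.63 ± 0.40, adjusted p = 0.000193). Of the binding proteins that carry it in tissue fluid, those that rose were Igfbp5 by 2.23, Igfbp6 by 1.97 and Igfbp3 by 1.55, while Igfbp2, Igfbp4 and Igfbp7 did not pass. Fgf1 fell by 0.68. HF library 1 was the highest library for each of the 4 that rose, and without it their differences were 1.79, 1.65, 1.57 and 1.23.

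In the endothelial list 5 of 40 rose and none fell. Vwf, von Willebrand factor, had 157, 40.2 and 47.6 FPKM against 16.2 to 18.1 FPKM in controls, with HF libraries 2 and 3 well below library 1. Egfl7, a secreted vascular protein, had 182, 158 and 192 FPKM against 77.7 to 123 FPKM (1.00 ± 0.13, adjusted p = 8.36e-05). The angiopoietin receptor Tek rose by 0.81, Cd93 by 1.02 and Mmrn2 by 0.55. The pan-endothelial cadherin Cdh5 did not pass, at 33.0, 45.5 and 58.7 FPKM against 39.8 to 49.4 FPKM. Without control library 5, in which the list's level was highest among controls, 11 members rose. The count was lowest without HF library 3, where the median difference was 0.23 against 0.40 with all libraries.

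Of 37 macrophage genes 1 met the rule, the receptor Lilrb4, which averaged under 0.5 FPKM in controls and had 3.40, 1.28 and 1.48 FPKM in HF and at most 0.663 FPKM in a control. The macrophage list's level was 0.98, 0.06 and 0.60 in the HF libraries and -0.30 to 0.43 in controls, and the groups overlapped. No lymphocyte gene of 6 and no neutrophil or mast cell gene of 7 changed. The levels of the interferon and antigen presentation lists overlapped between the groups as well. Interferon-induced genes had 4 of 29 higher and none lower, namely Ifi27l2a by 1.64, Oasl2 by 1.18, the signal transducer Stat2 by 0.99 and Xaf1 by 0.62. In antigen presentation 2 of 18 rose, the peptide transporter Tap1 by 0.82 and H2-T23 by 0.71. Tap1 lost its call when HF library 3 was left out (0.55). The complement list had 3 of 21 higher, among them C4a by 2.31 and Cfd, which is also made by fat cells. Cfd averaged under 0.5 FPKM in controls and passed the filter through other libraries, so that it is described only. Among chemokines and cytokines Csf1, which sustains macrophages, rose by 0.60 and the eosinophil attractant Ccl11 fell by 1.71.

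Of fatty acid oxidation genes 21 of 44 were lower in all 3 HF libraries and 1 was higher, with a median difference of -0.80 (-0.45 without HF library 1). Etfdh, which passes electrons from the first step of beta-oxidation to ubiquinone, had 39.9, 94.1 and 85.8 FPKM in HF against 199, 186, 196, 203 and 162 FPKM in controls. HF library 1 was the lowest, and the difference was -1.45 ± 0.23 (adjusted p = 0.00032; -1.07 ± 0.20 without HF library 1). Hsdl2, a peroxisomal dehydrogenase-like protein, had 16.7, 26.9 and 28.2 FPKM against 58.2 to 79.8 FPKM, and Acad11, an acyl-CoA dehydrogenase, fell by 1.23. Lpin1, a phosphatidate phosphatase and coactivator, fell by 1.18 and the acyl-CoA thioesterase Acot1 by 0.93. Some steps of the spiral itself, named after their values were seen, were among those that fell. The long-chain dehydrogenase Acadl did not meet the rule, and neither did Dci and Ech1. Acadm, the medium-chain acyl-CoA dehydrogenase, had 109, 293 and 269 FPKM against 609, 539.6, 571, 618 and 517 FPKM. Hadha and Hadhb, the subunits of the trifunctional protein, fell by 1.20 and 1.42. The very-long-chain acyl-CoA dehydrogenase Acadvl fell by 0.70 and the carnitine carrier Slc25a20 by 1.24. Cpt1b, the muscle carnitine palmitoyltransferase at the entry step, had 103, 203 and 171 FPKM against 221, 229, 231, 233 and 188 FPKM. It passed with all libraries (adjusted p = 0.0282) but not without HF library 1 (0.291). The member that rose was Cpt1c, a relative known from neurons, by 1.24. The list's level was -1.08, -0.27 and -0.62 in HF libraries 1 to 3 and -0.14 to 0.07 in controls. The ventricular marker list was also lowest in HF library 1, with a level of -1.002, 0.079 and -0.17 in HF libraries 1 to 3 and -0.11 to 0.12 in controls, and its part in the lower muscle and mitochondrial genes was not tested.

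The TCA cycle and its pyruvate entry had 18 of 34 members lower and none higher, and its level was -1.15, -0.44 and -0.59 in the HF libraries against -0.17 to 0.09 in controls. Sdha, the catalytic subunit of succinate dehydrogenase, had 145, 239 and 202 FPKM against 441, 429, 418, 462 and 368 FPKM (-1.14 ± 0.12, adjusted p = 2.07e-05). Dlat, the acetyltransferase core of pyruvate dehydrogenase, fell by 0.96, and Pdpr and Pdp2, parts of the phosphatases that switch that complex on, fell by 1.21 and 1.13. Got1, a transaminase of the malate-aspartate shuttle, fell by 1.05.

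Of complex I of the respiratory chain, 1 of 43 genes fell, Ndufs1, its largest subunit (-0.91 ± 0.12), and the list's median was -0.16 and, without HF library 1, 0.02. Of complexes III to V, 4 of 46 fell, against 5.70% of all genes tested, namely Cox15, which makes heme for cytochrome oxidase, by 0.90, Uqcrc2 by 0.72, and the ATP synthase subunits Atp5f1 and Atp5a1 by 0.72 and 0.58. The levels of both lists overlapped between HF and controls, and the difference from the TCA cycle list was not tested. Genes that maintain mitochondria, their carriers, import and ubiquinone synthesis, had 17 of 55 lower and none higher. Pdss2 and Coq9, of ubiquinone synthesis, fell by 1.39 and 1.19, and Coq10b, which binds ubiquinone, fell by 1.13. Vdac1, the main channel of the outer membrane, had 241, 359 and 321 FPKM against 529.6 to 618 FPKM. Slc25a12, an aspartate-glutamate carrier, fell by 0.83, and Tfam, the mitochondrial DNA transcription factor, by 0.46.

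**Figure D3:**
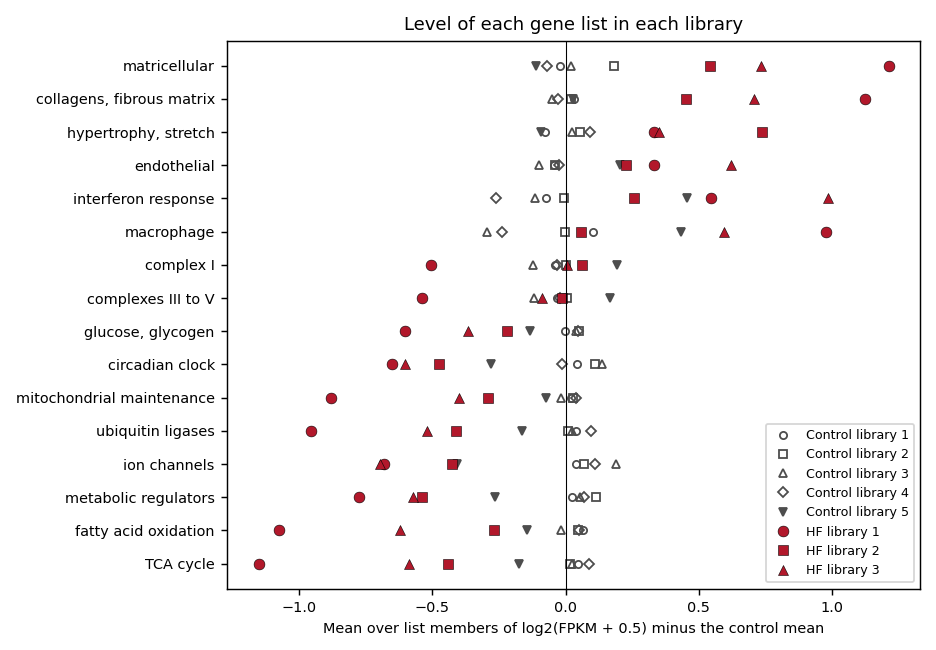
Level of 16 gene lists in each library, as the mean over members of log2(FPKM + 0.5) minus the control mean, with red symbols for HF libraries 1 to 3 and grey symbols for control libraries 1 to 5. The TCA cycle lies at -1.15, -0.44 and -0.59 in HF against -0.17 to 0.09 in controls, and for ion channels HF library 2, at -0.42, lies beside control library 5, at -0.41.

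Of glucose and glycogen genes 11 of 41 fell and none rose. Hk2, the insulin-regulated hexokinase, had 7.91, 21.3 and 19.1 FPKM against 28.5 to 49.2 FPKM, Pfkm, muscle phosphofructokinase, fell by 0.97, and Gys1, muscle glycogen synthase, by 1.17. The glycogen phosphorylases Pygm and Pygb fell by 1.04 and 0.97. Of genes that break down branched-chain amino acids and ketone bodies, 6 of 24 fell, among them Ivd by 1.08, Auh by 1.08 and Aldh6a1 by 0.79. In the energy transfer list 4 of 18 fell, including Ak4, a mitochondrial adenylate kinase, by 1.43 and Fitm2, which helps to form lipid droplets, by 1.44. None of these lists held a member that rose.

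Of the regulators of these pathways 8 of 25 fell and none rose. Ppara, the fatty acid receptor that drives oxidation genes, had 1.64, 2.60 and 2.23 FPKM in HF against 6.66, 7.30, 8.21, 7.97 and 4.56 FPKM in controls (-1.48 ± 0.19, adjusted p = 7.76e-05). Klf15, a glucocorticoid-induced factor of fasting metabolism, had 10.8, 9.83 and 9.18 FPKM against 29.5, 29.1, 28.9, 31.8 and 20.9 FPKM (-1.44 ± 0.17, adjusted p = 3.85e-05). Both had their lowest control value in library 5. The nuclear receptors Nr4a3 and Rxrg fell by 1.26 and 1.07. The estrogen-related receptors, named after their values were seen, all fell, Esrra by 0.71, Esrrb by 0.91 and Esrrg by 0.74. Their extended motif TNAAGGTCA, searched on both strands, was in 0.734% of promoters of the genes tested and in 0.423% of those of the genes that fell.

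Genes of calcium cycling and membrane junctions had 9 of 48 lower and 3 higher. The list's level was -0.17, -0.02 and -0.38 in HF libraries 1 to 3 and -0.19 to 0.07 in controls, and the groups overlapped. Jph2, junctophilin 2, which holds the sarcoplasmic reticulum to the transverse tubule, had 7.80, 22.0 and 14.8 FPKM in HF against 96.3, 106, 123, 124 and 47.6 FPKM in controls. Control library 5 was the lowest control, and the difference was -2.74 ± 0.38 (adjusted p = 0.000126; -2.35 ± 0.41 without HF library 1). Its relative Jph1 fell by 1.73, and Cacng6, a calcium channel gamma subunit, by 1.68. The calcium pump Atp2a2, named after its values were seen like the next pair, had 1097, 1274 and 1153 FPKM against 1946, 1912, 2083, 2098 and 1555 FPKM (-0.70 ± 0.16, adjusted p = 0.00388). The sodium-calcium exchanger Slc8a1 fell by 0.73 and cardiac calsequestrin Casq2 by 0.63. Casq1, the skeletal muscle calsequestrin, rose, with 14.2, 22.2 and 8.46 FPKM in HF against 3.48 to 7.77 FPKM, and Bin1, which shapes transverse tubules, rose by 0.74. The third that rose was Sln, an atrial gene whose values stand above. Without control library 5, 15 members fell, while the count was lowest without HF library 3. With 1 library left out, the median difference of -0.37 ran from -0.48 to -0.26.

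Ion channel genes had 7 of 31 lower and none higher, and the median difference was -0.57. Scn4b, a beta subunit of the sodium channel, had 0.346, 2.10 and 1.84 FPKM against 12.7, 12.5, 14.9, 12.1 and 5.17 FPKM (-2.72 ± 0.31, adjusted p = 3.22e-05). Kcnip2, the subunit that sets the transient outward potassium current of the ventricle, had 2.50, 13.6 and 10.4 FPKM against 36.5, 33.8, 36.4, 31.6 and 16.4 FPKM (-1.97 ± 0.34, adjusted p = 0.000633). The lowest control of both was library 5. Scn4a, the skeletal muscle sodium channel, fell by 1.44, Fgf13, which binds sodium channels, by 1.30, Kcna7 by 1.06 and Tmem65 of the intercalated disc by 0.80. The list's level was -0.68, -0.42 and -0.70 in HF and -0.41 to 0.19 in controls. Without control library 5, 13 channel genes fell, while the count was lowest without HF library 3. The median ran from -0.72 to -0.53 with 1 library left out.

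The contractile and adhesion lists held members that rose and members that fell. In the sarcomere list 8.51% rose and 12.8% fell, and in the intercalated disc list 3.33% and 13.3%. Over all genes tested these shares were 3.46% and 5.70%. Besides Myh7, the sarcomere list rose in the atrial light chains Myl7 and Myl4 and in Pdlim3, and 6 of its 47 members fell. The levels of the sarcomere and disc lists overlapped between the groups. Mypn, myopalladin of the Z-disc, had 0.669, 2.73 and 2.69 FPKM against 5.37 to 14.4 FPKM, Tmod1, which caps thin filaments, fell by 1.46 and the chaperone partner Bag3 by 0.63. Palld, palladin, an actin-bundling relative of myopalladin, had 2.09, 2.94 and 1.71 FPKM against 13.7, 13.0, 14.9, 15.2 and 5.46 FPKM (-2.18 ± 0.38, adjusted p = 0.000632). Of intercalated disc genes 4 of 30 fell and 1 rose, Xirp2 as given above. N-cadherin Cdh2 fell by 0.93 and desmoplakin Dsp by 0.95. Dag1, dystroglycan, which ties the muscle membrane to laminin, was among the 15 largest falls, with 3.63, 5.04 and 4.72 FPKM against 26.4, 26.9, 35.0, 34.2 and 10.6 FPKM (-2.35 ± 0.32, adjusted p = 8.62e-05).

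**Figure D4:**
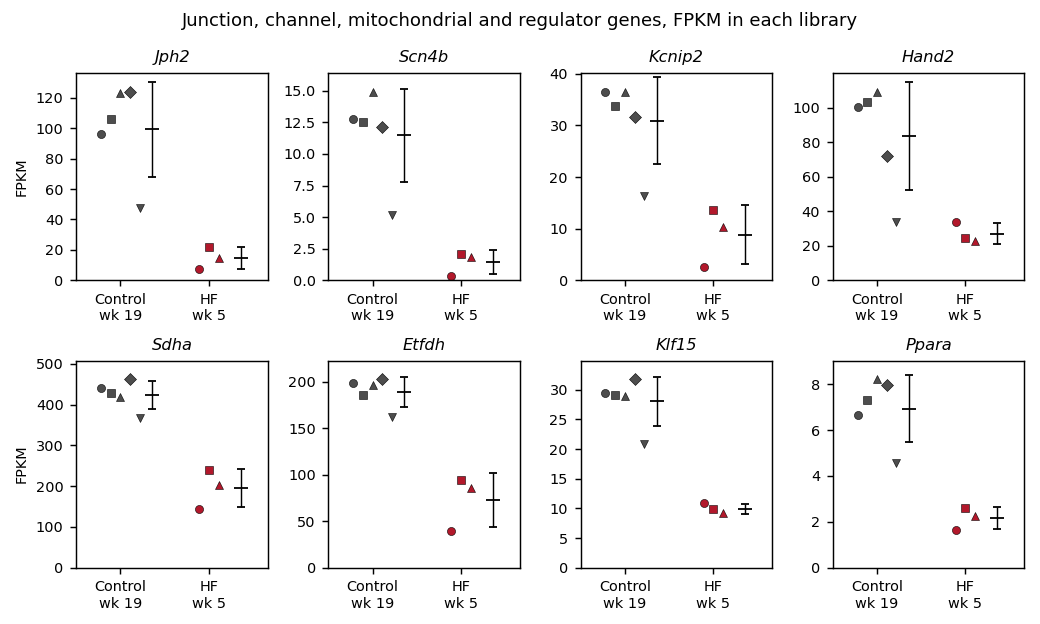
FPKM in each library for 8 genes that fell, of junctions and channels (Jph2, Scn4b, Kcnip2), transcription factors and regulators (Hand2, Klf15, Ppara) and mitochondria (Sdha, Etfdh); symbols and bars are as in the plot of hypertrophy and matrix genes. Control library 5, the downward triangle, is the lowest grey symbol in all 8 panels. Every HF library lies below it, as the rule requires. The gap is least in Hand2, with 33.9 FPKM in HF library 1 and 34.0 FPKM in control library 5.

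Muscle ubiquitin ligases and their adaptors had 9 of 41 members lower and none higher. Trim55, a RING-finger ligase of the sarcomere, had 1.19, 1.43 and 1.82 FPKM against 10.5, 9.07, 11.3, 10.5 and 5.91 FPKM (-2.31 ± 0.30, adjusted p = 6.33e-05). Fbxo40, a muscle F-box protein that targets insulin receptor substrate, had 0.422, 1.56 and 2.54 FPKM against 10.3, 10.1, 15.3, 15.3 and 6.22 FPKM. Asb18 fell by 2.09, Klhl38 by 1.15 and the deubiquitinase Usp2 by 1.20. Without control library 5, 14 of the ligase list fell, while the count was lowest without HF library 3. The list's median of -0.49 ran from -0.61 to -0.33 with 1 library left out. None of the 36 proteasome genes met the full rule. With an adjusted p under 0.05 in all libraries alone, 2 were higher and 4 lower. Of the transcription factors of the heart 3 of 41 fell, or 7.32% against 5.70% of all genes tested. Hand2, needed for the right ventricle in the embryo, had 33.9, 24.3 and 22.6 FPKM against 100.1, 103, 109, 71.9 and 34.0 FPKM. Hopx fell by 1.04 and Nkx2-5 by 0.78. Nfatc4, a target of calcineurin, rose by 0.92.

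Clock genes had 6 of 25 lower and none higher. Gm129, the record of the repressor that RefSeq names Ciart, had 0.858, 2.84 and 1.53 FPKM against 12.4, 16.3, 13.8, 6.25 and 3.95 FPKM (-2.23 ± 0.51, adjusted p = 0.00434). Dbp, an output factor of the clock, fell by 1.84, Klf9, which glucocorticoids induce, by 1.42, and the kinase Wee1 by 0.85. The hour at which hearts were taken is not given in the sources used here, so that the hour and the treatment cannot be told apart for these genes. CLOCK and BMAL1 bind the E-box CACGTG, which reads the same on both strands, and it was in 9.84% of promoters of the genes tested, 8.03% of those of the genes that fell, 7 of 28 promoters of the 19 clock genes matched, and 1 of 5 promoters of the 5 matched among the 6 that changed. The promoter of Gm129 (GRCm38.p6, chr3:95882179-95882478, - strand) is shown because it holds 3 E-boxes, in capitals, the first starting 116 and the second 58 bases before the gene start.
Gm129: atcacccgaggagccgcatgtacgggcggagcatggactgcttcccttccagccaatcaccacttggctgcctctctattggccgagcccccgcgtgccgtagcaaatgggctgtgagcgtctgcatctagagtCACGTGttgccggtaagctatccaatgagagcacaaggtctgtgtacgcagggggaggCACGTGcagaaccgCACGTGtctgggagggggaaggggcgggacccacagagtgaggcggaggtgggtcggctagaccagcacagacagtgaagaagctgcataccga

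Among genes of angiotensin, nitric oxide and natriuretic peptide signalling, the systems that the treatment acts on, 5 of 32 rose and 2 fell. Npr3, the receptor that clears natriuretic peptides, had 21.7, 3.39 and 3.45 FPKM against 0.755 to 1.74 FPKM (2.03 ± 0.38, adjusted p = 0.00114), and Nppb is given above. Pde9a, a phosphodiesterase specific for cGMP, rose by 1.20, while Pde3a, which cGMP inhibits, fell by 1.39. Agtr1a, the main angiotensin II receptor, had 3.66, 7.87 and 5.96 FPKM against 14.0, 13.8, 14.4, 11.1 and 9.55 FPKM (-1.08 ± 0.23, adjusted p = 0.00265). Endothelial nitric oxide synthase Nos3 had 35.4, 21.0 and 20.8 FPKM against 10.1 to 16.3 FPKM, and passed with all libraries (adjusted p = 0.00871) but not without HF library 1 (0.0978). Angiotensinogen Agt and the converting enzyme Ace gave no call, at 0.21 and 0.10.

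Of adrenergic and cAMP genes 5 of 33 fell and 1 rose. Prkar2a, a regulatory subunit of protein kinase A, had 1.06, 1.07 and 1.60 FPKM against 5.64, 5.80, 6.58, 6.14 and 2.55 FPKM, and Akap1, which anchors that kinase at mitochondria, fell by 0.83. Chrm2, the muscarinic receptor of the vagal response, had 0.175, 0.353 and 0.415 FPKM against 2.44, 2.43, 3.00, 2.59 and 0.592 FPKM, control library 5 being far below the other controls. Arrb1, a beta-arrestin that uncouples receptors, rose by 0.82. Gna12, a G protein alpha subunit, was among the 15 largest falls with 4.08, 4.95 and 6.65 FPKM against 30.2, 31.0, 37.2, 34.5 and 13.3 FPKM.

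The other genes among the 15 largest falls belong to no single list. Ccrn4l, nocturnin, a rhythmic phosphatase, had 9.18, 4.89 and 5.20 FPKM against 21.4, 24.4, 32.0, 24.4 and 19.8 FPKM, and Zbtb16, a zinc finger factor induced by glucocorticoids, had 2.31, 1.64 and 1.92 FPKM against 8.07, 8.44, 13.2, 12.5 and 5.06 FPKM. Opa3, a mitochondrial membrane protein, fell by 2.11 and Purb, a repressor of the alpha-myosin gene, by 1.98. Nudcd3, a cochaperone of dynein, fell by 2.35, Ccdc85c by 2.44 and Rtn4rl2, a relative of the Nogo receptor, by 1.56. Control library 5 was the lowest control for each of Ccrn4l, Zbtb16, Opa3, Purb, Nudcd3 and Ccdc85c.

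Of the 15 largest rises, several are records under an older name, whose reads may be shared with another record of the same gene, and their values are uncertain. Pmi had 33.2, 40.7 and 43.8 FPKM against 0 to 20.8 FPKM, while Mpi, the present name of that enzyme, went the other way, at 10.3, 25.9 and 19.6 FPKM against 41.0 to 67.2 FPKM. The records Hgfl and mFLJ00163 had 21.4, 24.3 and 18.8 and 68.8, 25.9 and 25.6 FPKM against 0.00340 to 13.5 and 1.85 to 16.7 FPKM. Nkain4, a membrane protein that binds the sodium pump, had 19.3, 8.70 and 3.78 FPKM against 0.0769 to 0.834 FPKM.

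Counts in the lists that follow stand beside 3.46% higher and 5.70% lower over all genes tested. No immediate early gene of 23 changed. Of 51 genes of endoplasmic reticulum stress 1 rose and 2 fell, among them Herpud1, which fell by 0.78. Heat shock genes and cochaperones had 5 of 29 lower, including Stip1 by 0.69 and Dnajc7 by 0.72. Of the amino acid stress response 2 of 29 fell, with Ddit4, which restrains mTOR, at 33.1, 14.2 and 19.6 FPKM in HF against 36.6 to 86.5 FPKM. In the autophagy list 4 of 32 fell, Atg9a most, by 1.93, and in the lysosome list 1 of 44 rose and 2 fell. Antioxidant genes had 4 of 40 lower, with the mitochondrial enzymes Prdx3 and Sod2 falling by 0.96 and 0.79, and 1 higher. Of RNA-binding splicing factors 3 of 32 fell, Celf1 by 1.25, Rbm38 by 1.28 and Rbm24 by 0.88. In the cell cycle list 1 of 39 fell and none rose. Wnt pathway genes had 4 of 30 higher and 1 lower, and 1 of the 4 averaged under 0.5 FPKM in controls. Actin and motility genes had 5 of 55 higher and 1 lower, and chromatin regulators 1 of 39 lower. The ventricular marker list had 1 of 13 lower, Kcnip2, and none higher. In the lymphatic list of 6, the blood cell list of 6 and the nerve and glia list of 7, none met the rule. With all libraries alone, 1 lymphatic and 2 nerve and glia genes had an adjusted p under 0.05, all higher.

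Of 14 epicardial and mesothelial markers of the outer surface of the heart, 12 passed the filter on low values. 9 of the 12 averaged under 0.5 FPKM in the controls and passed the filter through other libraries, so that their count is a description only. These 9 met the rule, and 8 list members did with no filter. Msln, mesothelin, had 32.7, 10.5 and 2.28 FPKM against 0.0598 to 0.328 FPKM, and Upk3b, a uroplakin of mesothelium, had 22.5, 7.80 and 3.39 FPKM against 0 to 0.159 FPKM. The keratin Krt19 had 12.2, 5.89 and 1.18 FPKM against 0 to 0.142 FPKM, Upk1b had 11.5, 4.62 and 1.24 FPKM against 0 to 0.106 FPKM, and Dmkn had 18.7, 3.90 and 0.609 FPKM against 0 to 0.389 FPKM. HF library 1 was the highest and HF library 3 the lowest HF library for each of these 5 genes. The epicardial factors Wt1 and Tbx18 did not pass, with differences of 0.63 and 0.25. The list's level was 3.47, 2.18 and 1.22 in HF libraries 1 to 3 and -0.05 to 0.08 in controls.

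Atrial and fat genes met the rule through libraries that differed widely. 4 of 18 atrial genes rose and 1 fell, and 1 of the 4 averaged under 0.5 FPKM in controls. Myl4, a further atrial light chain, had 11435, 116 and 8.05 FPKM in HF against 4.04 to 6.63 FPKM, so that HF library 3 lay just above the controls while library 1 was far higher, and Dkk3 had 134, 6.68 and 1.98 FPKM against 0.363 to 0.750 FPKM. The atrial list's level was 3.57, 1.01 and -0.05 in HF and -0.24 to 0.11 in controls. 4 of 13 fat cell genes met the rule, in a list of which 6 averaged under 0.5 FPKM in controls. 3 of the 4, Cfd, Retn and Cidec, were among these 6. They passed the filter through other libraries, so that the count is a description only. Cfd, adipsin, had 214, 189 and 1.28 FPKM against 0.0792 to 0.167 FPKM, Retn, resistin, 21.6, 17.9 and 0.477 FPKM against 0 to 0.180 FPKM, and Cidec, a lipid droplet protein, 12.7, 14.1 and 0.140 FPKM against 0 to 0.130 FPKM. Scd1, a desaturase also made outside fat, had 18.4, 8.60 and 4.36 FPKM against 2.05 to 2.92 FPKM. The defining fat gene Adipoq had 10.5, 15.6 and 0.0516 FPKM, and its value in HF library 3 lay within the controls' range of 0 to 0.0960 FPKM. The part of atrial, mesothelial and fat tissue in the other rises was not tested.

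**Figure D5:**
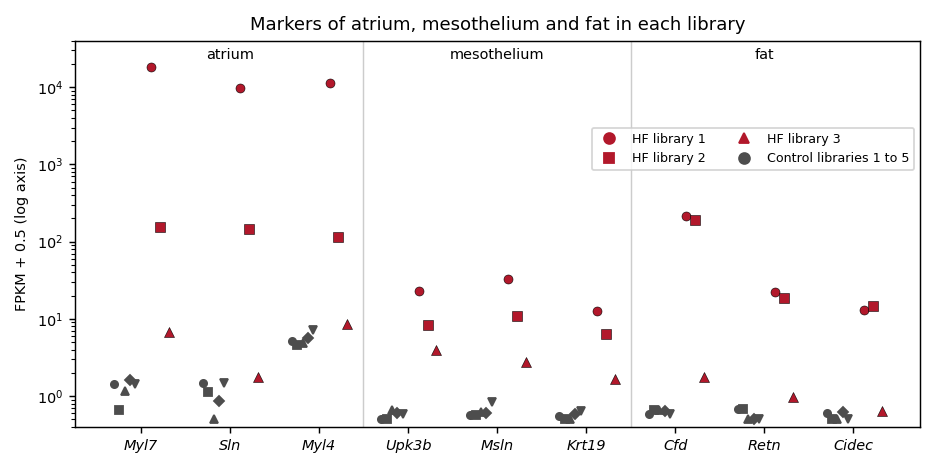
FPKM + 0.5 on a log axis for markers of the atrium, mesothelium and fat, with red symbols for HF libraries 1 to 3 and grey symbols for the 5 controls. Atrial markers are highest in HF library 1, at 18388 FPKM for Myl7 against 6.16 FPKM in HF library 3, and fat markers lie high in HF libraries 1 and 2 and near the controls in HF library 3.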

How the data were processed

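RNA-seq values were one table of FPKM for 24 libraries used here, which the authors deposited after aligning poly(A) reads to mm9 with TopHat2 and estimating expression with Cuffdiff. Of 9 labelled groups 8 were used, because 5 columns named for control week 5 face 4 labelled samples and were not used. Recovery week 4 had fewer columns than labelled samples and was kept in the fit.

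From the deposited FPKM, the filter kept 12759 genes averaging 0.5 FPKM or more across the libraries. limma 3.58.1 (R 4.3.3) was run on log2(FPKM + 0.5), estimating 1 mean per group for 8 groups, which left 16 residual degrees of freedom, or 15 without HF library 1, with a trended prior variance and Benjamini-Hochberg adjustment over all genes tested. Summaries used Python 3.11.15, pandas 2.3.3 and numpy 2.4.6, and the fit was tested on simulated data. HF library 1 to 3 and control library 1 to 5 follow the column names. No 2 of the 8 libraries held the same values.

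The gene lists, the members and the comparison were chosen with earlier results of these data known. Genes were named by rule, as the 15 largest rises and 15 largest falls without HF library 1 among changed genes that averaged 5 FPKM or more in the higher group, up to 5 changed members of each list, every hypertrophy gene, the atrial markers, and list members without a call for their values. Others are marked in the text as chosen after their values were seen, as are Smoc2, Cpt1c, Csf1, Ccl11, Bin1, Tfam, Pdlim3, Mpi and Scgb1a1. Relative depth was read from the smallest steps of low genes. Promoters were matched by symbol or synonym for 9612 tested genes in RefSeq GRCm38.p6, a later build than mm9. Alternatives covered the pseudocount, the filter, normalisation, the groups in the fit and leaving out each library. No interval is given for counting error, since the values are not counts. Some genes that the rule selects are not reported here.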

Additional observations from a re-analysis of the deposited data

Results flagged for a closer look

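Among the 220 gene and list values examined in the 5 controls, 62 had 1 control library so far from the nearest of the others that the gap, divided by the range of the 5, passed Dixon's critical value, 0.71 for 5 samples. Chance alone gives about 1 in 20 such values. Control library 5 was the distant library for nearly all of them, being low in 49 and high in 10.

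Of genes that fell in HF, control library 5 was low in those of calcium cycling, channels, the sarcomere and the disc, and the gap over the range was 0.737 for Jph2, 0.839 for Jph1, 0.726 for Casq2, 0.8 for Scn4b, 0.751 for Scn4a, 0.82 for Kcnip2, 0.819 for Fgf13, 0.795 for Tmod1, 0.843 for Palld, 0.732 for Cdh2 and 0.762 for Dag1. Control library 5 was low in genes of fuel use and mitochondria as well, with gaps over the range of 0.837 for Pkm2, 0.74 for Acad11, 0.744 for Cpt1b, 0.792 for Hadha, 0.813 for Got1, 0.742 for Dlat, 0.71 for Pdpr, 0.746 for Pdp2, 0.716 for Cox15, 0.797 for Coq9, 0.718 for Slc25a12, 0.784 for Pygb, 0.887 for Pfkm, 0.88 for Pygm, 0.917 for Opa3, 0.82 for Sod2, 0.788 for Pex19 and 0.814 for Mpi. Among regulators and signalling genes the gap was 0.771 for Klf15, 0.814 for Esrra, 0.718 for Esrrb, 0.758 for Nkx2-5, 0.875 for Klf9, 0.773 for Pde3a, 0.831 for Prkar2a, 0.846 for Chrm2 and 0.796 for Gna12. Low values in control library 5 also marked other genes, at 0.763 for Timp3, 0.898 for Smoc2, 0.815 for Herpud1, 0.785 for Atg9a, 0.837 for Nudcd3 and 0.77 for Ccdc85c.

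Control library 5 was high, towards the HF libraries, in most of the genes concerned, with gaps over the range of 0.76 for Igfbp3, 0.822 for Cd93, 0.737 for Egfl7, 0.713 for Stat2, 0.73 for Msln, 0.871 for mFLJ00163, 0.769 for Prg4 and 0.805 for Mgp. For Pex13, which fell in HF, it was high at 0.791, away from the HF libraries. The remaining genes had another distant library, control library 2 high for Dkk3 (0.793), control library 4 low for Oasl2 (0.807) and control library 4 high for Adipoq (1.0), a gene listed at 0 in the other controls. The levels of 6 lists set control library 5 apart, high for the endothelial list (0.757) and low for the TCA cycle (0.728), glucose and glycogen (0.73), metabolic regulator (0.757), calcium cycling (0.845) and ion channel (0.753) lists. With control library 5 left out, 1948 genes met the rule instead of 1169, and 1152 of the 1169 were among them. Since leaving out a control cannot make the groups overlap, this is no test of stability.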

How the results depend on the processing

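The number of genes that met the rule was 442 higher and 727 lower as reported. Leaving out 1 library in turn gave 81 to 823 higher and 121 to 1125 lower. The lowest counts came without HF library 3 and the highest without control library 5. Without HF library 2 or 3 a lone library stands beside HF library 1 and is assumed to vary like the other groups. Members of lists that rose ranged from 2 to 7 (hypertrophy), 0 to 13 (collagens), 2 to 13 (matricellular), 5 to 9 (epicardial) and 1 to 11 (endothelial). Members that fell ranged from 8 to 24 (fatty acid oxidation), 4 to 23 (TCA cycle), 4 to 22 (mitochondrial maintenance), 1 to 14 (glucose), 3 to 9 (regulators), 0 to 15 (calcium cycling), 2 to 13 (ion channels), 3 to 14 (ubiquitin ligases) and 0 to 7 (clock).

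The median difference of the clock list ranged from -0.623 to -0.365, and the medians of these 14 lists kept their sign in every alternative. The hypertrophy median was 0.51 without HF library 3. With the fit limited to the 2 groups, 801 genes rose and 15 collagen genes rose, and 1031 of the 1169 genes still met the rule. Without the week 3 HF libraries in the shared spread, 872 genes rose and 1190 fell, with 16 collagen and 9 endothelial genes higher and 15 calcium cycling, 11 ion channel and 16 ubiquitin ligase genes lower. Quantile normalisation gave 14 collagen and 8 endothelial genes. A pseudocount of 0.1 gave an epicardial median of 3.966, and with no filter on low values 3 clock genes fell. In these fits the cause was not tested. Pseudocount 1, a filter of 1 FPKM and median centring moved no count or median by that much.

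Alternatives for single genes were run for the named genes, and those whose direction reversed had no call. Csrp3 was -0.0037 with median centring and -0.2355 with quantile normalisation, and ran from -0.1315 to 0.216 with 1 library left out. Flnc was -0.0585 with median centring and ran from -0.2229 to 0.1982, being -0.0248 without control library 1 and -0.1244 without control library 5. Des ran from -0.1945 to 0.1229, with 0.0317 without HF library 3 and 0.0505 without control library 2. Cdh5 was 0.0141 with quantile normalisation and ran from -0.2315 to 0.179. With 1 library left out, Myh7b ran from -0.9848 to 0.3666, Mt1 from -0.0691 to 0.5786, Mt2 from -0.037 to 1.3697, Agt from -0.4029 to 0.5885, Ankrd2 from -0.018 to 0.4388, Nrap from -0.1098 to 0.435, Synpo2l from -0.6287 to 0.0654 and Ace from -0.0323 to 0.2667. Among the named genes that met the rule, Timp3 lost its adjusted p without HF library 2 (-0.8202), Tap1 without HF library 3 (0.5541) and Myl4 in the fit of the 2 groups (5.3717).

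No paired analysis was possible because the columns of the expression table carry no number that links them to labelled animals. The depth of the libraries is unknown, which limits statements on genes near 0.5 FPKM.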

Other observations

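Peroxisome genes were grouped after their values were seen. Of 15 peroxin genes tested, which build peroxisomes, none rose and 5 fell, or 33.3% against 5.70% of all genes tested, and the median difference was -0.36. Pex11a, which divides peroxisomes, had 1.22, 2.54 and 1.25 FPKM in HF against 7.66, 6.47, 5.78, 7.42 and 5.18 FPKM in controls (-1.73 ± 0.29, limma adjusted p = 0.000423). Pex7 and Pex19, which bring in proteins, fell by 0.99 and 0.82 and Pex13 by 0.39. Mitochondrial ribosomal proteins had 7 of 76 lower and none higher, with a median of -0.21 and, without HF library 1, -0.08. None of 74 cytosolic ribosomal proteins met the rule, with a median of 0.47.

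Plin5 and Egln3, also picked after their values were seen, were lower in HF. Plin5, which coats lipid droplets at mitochondria, had 14.6, 48.4 and 38.3 FPKM against 63.2 to 85.7 FPKM, and Egln3, a prolyl hydroxylase of the hypoxia response, had 10.5, 16.5 and 15.6 FPKM against 30.2 to 48.7 FPKM.

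Of secreted and surface proteins outside the lists, also chosen after their values were seen, Mgp, which keeps calcium salts out of vessel walls, had 2893, 1072 and 1338 FPKM against 347, 348, 361, 336 and 484 FPKM. Prg4, lubricin, had 22.4, 9.08 and 11.1 FPKM against 2.93 to 6.06 FPKM, highest in HF library 1. Cd200, a surface protein that restrains macrophages, had 154, 174 and 218 FPKM against 62.8, 54.9, 46.1, 35.2 and 65.3 FPKM, and HF library 1 was its lowest HF library.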
